A study of Mus musculus with 20 samples.

Results

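The 36 genes described here encode enzymes that remove superoxide and peroxides, the thioredoxin, glutaredoxin and glutathione systems that keep those enzymes reduced, and a group of selenoproteins. They were taken by symbol from a named list, and values were used only from intact lines of the deposited table. Of the 36 genes, 32 had an intact line and all 32 passed the filter on low counts, in a table of 35504 genes of which 23993 were intact and 10207 were tested. The lines of the superoxide dismutases Sod1, Sod2 and Sod3 and of the mitochondrial uncoupling protein Ucp2 hold a 1 followed by zeros. These 4 genes carry no usable value and are not analysed here, so the step that turns superoxide into hydrogen peroxide is not covered.

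Liver RNA was sequenced from 20 female mice, each sample being 1 animal, with 5 mice in each of 4 groups. The groups were a vehicle diet without a running wheel (Con.Sed), a vehicle diet with voluntary wheel running (Con.VWR), a diet with oral combined contraceptives without a wheel (OC.Sed), and that diet with voluntary wheel running (OC.VWR). Oral combined contraceptives pair an estrogen with a progestin. The hormones, doses, strain, age and length of treatment are not given in the sources used here, and the labels name no transgene or deletion. The series title places the question in liver mitochondrial reactive oxygen species under the contraceptives.

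Superoxide dismutases convert superoxide, much of it leaked from mitochondria, into hydrogen peroxide, which catalase, the glutathione peroxidases and the peroxiredoxins then reduce to water. The last enzymes are recharged by glutathione or thioredoxin, and both carriers draw their electrons from NADPH, which mitochondria make in part with the proton-driven transhydrogenase Nnt. Selenoproteins carry selenocysteine, the amino acid with a reactive selenium atom, and the liver both uses them and exports selenium to other tissues as selenoprotein P.

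Selenocysteine is encoded by TGA, which is otherwise a stop codon, and 9 of the 32 measured genes have such a codon annotated in GENCODE vM21 (GRCm38). The codon is shown because it is the one coding feature that these 9 genes share and the other 23 lack. Each line gives the coding strand, 5′ to 3′, around the first annotated selenocysteine codon, with TGA in capitals, up to 12 bases on each side and ending at the stop codon where that comes first.
Gpx1: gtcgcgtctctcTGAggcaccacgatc
Gpx3: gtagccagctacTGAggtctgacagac
Gpx4: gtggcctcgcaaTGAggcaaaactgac
Txnrd1: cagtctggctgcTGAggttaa
Txnrd2: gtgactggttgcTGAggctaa
Msrb1: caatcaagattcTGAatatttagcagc
Selenop: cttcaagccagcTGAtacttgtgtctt
Selenow: tattgtggagctTGAggctataagccc
Selenof: gaagtctgcggaTGAaaattggggagg

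The place of the codon differs between them. In both thioredoxin reductases it is the last but one sense codon (codon 612 of 613 in Txnrd1 and 526 of 527 in Txnrd2), followed by a glycine codon and the stop. In Selenow it is codon 13 of 88, at chr7:15920464-15920466 on the minus strand, and in Gpx1 it is codon 47 of 201, at chr9:108339451-108339453 on the plus strand. Selenop, which encodes selenoprotein P, has 10 annotated selenocysteine codons, the first of them codon 59 of 380, and each of the others shown has 1.

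Levels are given as CPM, the count of a gene relative to the total of its library after TMM scaling, and differences as log2 fold changes with their standard error (SE). A gene was called changed when its p-value in edgeR's quasi-likelihood test, adjusted by Benjamini-Hochberg over the 10207 genes tested, was below 0.05. Every adjusted p below is from that test unless another tool is named. All 4 groups were fitted at once and share an estimate of spread. Leaving out a library can therefore alter calls in comparisons that it is not part of. Library totals ran from 10883936 to 16134618 counts. The first principal component of all genes tested (39.2% of the variance) separated the diets. The second (11.6%) set apart 1 library, Con.Sed replicate 2, at -53 against -11.2 to 17.1 in the other 19. In that library 10 of the 32 genes lay more than 1.5-fold from the mean of the other 4 libraries of the group, against 0 to 4 genes in each other library. Where leaving it out moved a value or a call of these genes most, the value without it stands beside the value with it. Hepatocyte markers summed to between 182000 and 246100 CPM in vehicle libraries and between 113200 and 155400 CPM in OC libraries, over the 10 of 15 markers that were intact. Of those 10, averaged over activity, 1 was higher and 5 were lower on the OC diet, and of 11 stellate cell and fibroblast markers 9 were lower, with sums of 646.8 to 1013 CPM in vehicle and 429.1 to 741.8 CPM in OC libraries. Of 8 intact lymphocyte and neutrophil markers, 4 were lower in sedentary mice and 3 averaged over activity, and in running mice 2 were higher and 1 lower. Their sums were 13.67 to 23.56 CPM in Con.Sed, the highest being replicate 2, and at most 20.13 CPM in the other 19 libraries. Averaged over activity, 1 of 10 Kupffer cell and macrophage markers was higher and 2 of 4 tested adipocyte markers were lower. None of 13 liver endothelium, 6 cholangiocyte or 2 erythroid markers tested was called there. Of all genes, 11.9% were higher and 11% lower averaged over activity, and 9.11% and 7.2% in sedentary mice. In running mice 7.09% were higher and 6.06% lower. None of the intact markers in these lists was at 0 in every library. The part of any of these lists in the results below was not tested, and in bulk tissue fewer cells of a type and less RNA per cell cannot be told apart.

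Measured per kilobase of exonic length and averaged over the 20 libraries, the levels of the 32 genes ran over more than 3 orders of magnitude. Selenop, the secreted selenium carrier, was highest at 6023 CPM per kilobase (4275 to 8374), followed by the cytosolic glutathione peroxidase Gpx1 at 2092 (1528 to 2860) and catalase (Cat) at 1170 (753.7 to 1429). The ranges of Selenop and Gpx1 did not overlap, and each Gpx1 library was above each Cat library. Below them came Prdx1 at 379.2, Msrb1 at 320.6 and Gpx4 at 281.9 CPM per kilobase, whose ranges overlapped. Gpx7 and Gpx8, peroxidases of the endoplasmic reticulum, were lowest at 1.71 and 1.12 CPM per kilobase, with overlapping ranges.

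The OC diet changed few of these genes, and by less than 2-fold. Averaged over activity, 6 of the 32 were called, 2 higher and 4 lower, against 22.9% of all 10207 genes (11.9% higher, 11% lower). The transhydrogenase Nnt, the glutathione peroxidase Gpx1, the thioredoxin inhibitor Txnip and the mitochondrial thioredoxin reductase Txnrd2 fell. The secreted glutathione peroxidase Gpx3 and the small selenoprotein Selenow rose. The median log2 fold change was -0.05 over the 32 genes and 0.00 over all genes, and the 26 genes not called lay between -0.38 and 0.25. The share of called genes is thus near that of all genes. Of these 6 genes 4 are selenoproteins, with Gpx3 and Selenow higher and Gpx1 and Txnrd2 lower, and 2 are among the 23 other genes. With library totals in place of TMM, which moved the median of all genes up by 0.11, 11 were higher and 2 lower, against 30.9% of all genes (25.1% higher, 5.87% lower).

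**Figure D1:**
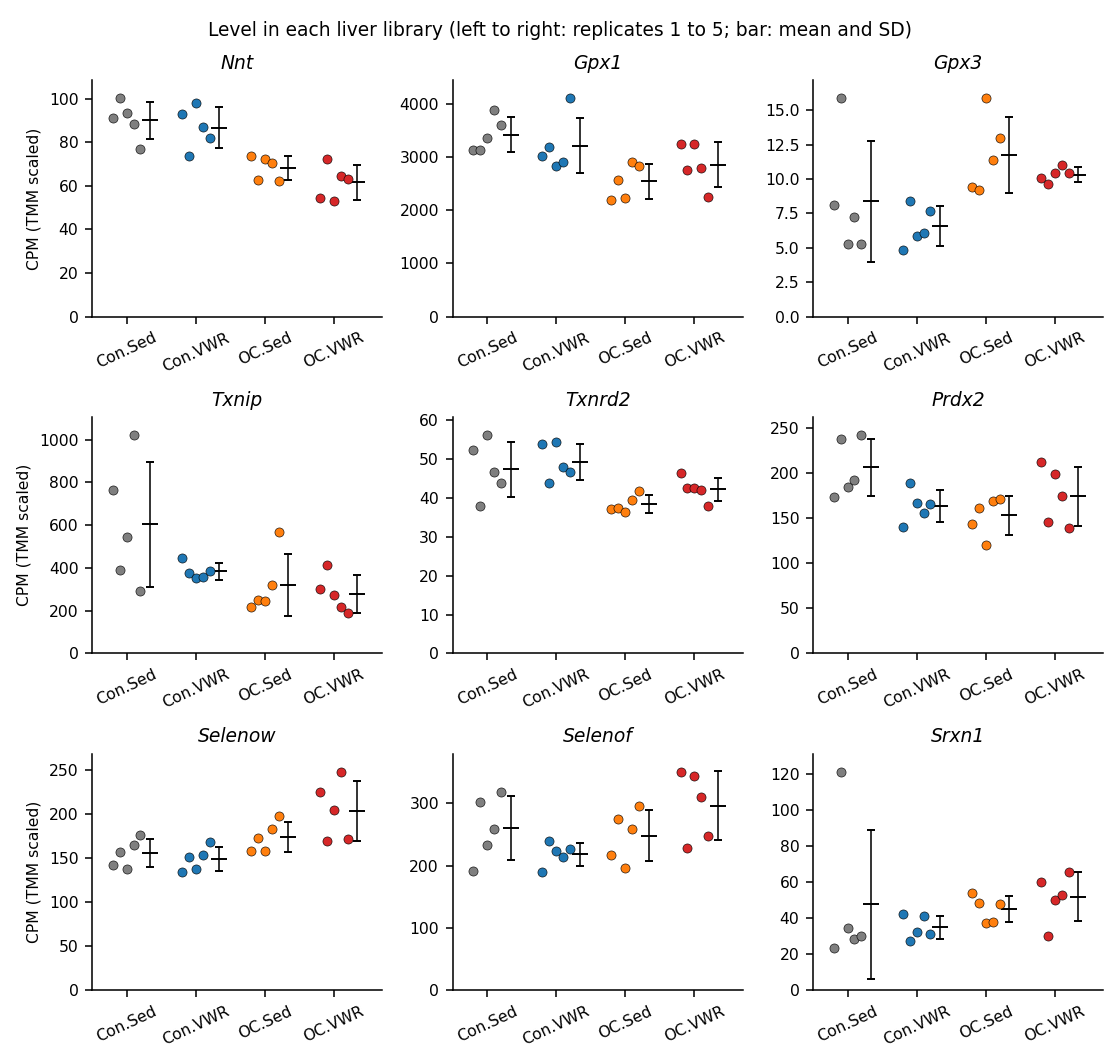
Level in CPM of 9 genes in each of the 20 liver libraries, by group, with the mean and SD of 5 mice beside each group; every vertical axis starts at 0. Nnt is lower in all 10 OC libraries (at most 73.5 CPM) than in any of the 10 vehicle libraries (at least 73.9 CPM), and Con.Sed replicate 2 stands alone in Srxn1 at 121.5 CPM.

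Nnt (chr13:119335448-119408997, minus strand) passes electrons from NADH to NADP+ at the inner mitochondrial membrane. In replicate order its level was 91.0, 100.4, 93.3, 88.6 and 77.01 CPM in Con.Sed, and 92.9, 73.9, 97.8, 86.9 and 81.9 CPM in Con.VWR. It was 73.5, 62.6, 72.5, 70.4 and 62.3 CPM in OC.Sed, and 54.5, 72.5, 53.0, 64.4 and 63.3 CPM in OC.VWR. Every OC library was below every vehicle library. Nnt fell by 0.40 on the log2 scale in sedentary mice (SE 0.10, adjusted p = 0.00924), by 0.49 in running mice (SE 0.10, adjusted p = 0.00206) and by 0.45 averaged over activity (SE 0.07, adjusted p = 7.46e-05), a level 1.36-fold lower. It was the only one of the 32 genes called in both activity groups, and its interaction with running was -0.09 (SE 0.14, adjusted p = 0.755). The sedentary call was lost with library totals in place of TMM (-0.29, adjusted p = 0.0593), and a second gene model at the locus also carries the name Nnt, so reads between the 2 models could be divided by the authors' counting.

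Among the peroxide-removing enzymes, Gpx1 and Gpx3 went opposite ways. Gpx1 (chr9:108338903-108340343), which reduces hydrogen peroxide with glutathione in the cytosol and mitochondria, stood at 3142, 3132, 3365, 3893 and 3606 CPM in Con.Sed and at 2202, 2569, 2238, 2911 and 2836 CPM in OC.Sed. These 2 groups did not overlap. In running mice its levels were 3030, 3199, 2832, 2913 and 4121 CPM on vehicle and 3253, 2760, 3256, 2794 and 2243 CPM on OC, which overlapped. Gpx1 fell by 0.43 in sedentary mice (SE 0.13, adjusted p = 0.0266) and by 0.30 averaged over activity (SE 0.09, adjusted p = 0.0199), and the difference in running mice was -0.17 (SE 0.13, adjusted p = 0.402). The averaged call was lost with library totals only (-0.19, adjusted p = 0.112). The sedentary call was lost with library totals, without Con.Sed replicates 2 and 5 together, and when Con.Sed replicate 4 or OC.Sed replicate 1, 2 or 3 was left out, with adjusted p between 0.0512 and 0.0823.

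Gpx3 (chr11:54902453-54910377) encodes the glutathione peroxidase of plasma, which the kidney is the main tissue to secrete, and its liver level was low. It was 8.12, 15.9, 5.29, 7.23 and 5.30 CPM in Con.Sed and 4.81, 8.41, 5.89, 6.04 and 7.65 CPM in Con.VWR. On OC it was 9.40, 9.24, 15.9, 11.4 and 13.0 CPM in sedentary mice and 10.1, 9.61, 10.4, 11.1 and 10.5 CPM in running mice. Apart from Con.Sed replicate 2, every vehicle library was below every OC library. Averaged over activity Gpx3 rose by 0.58 (SE 0.17, adjusted p = 0.0164), 1.49-fold, and in none of 28 alternatives was the call lost. Within the activity groups the differences were 0.49 in sedentary mice (SE 0.24, adjusted p = 0.159) and 0.66 in running mice (SE 0.24, adjusted p = 0.0717). Without Con.Sed replicate 2 these were called, at 0.86 (adjusted p = 0.00286) and 0.66 (adjusted p = 0.0107). That library is not part of the running comparison, where the difference itself stayed at 0.66.

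The other 4 enzymes of the catalase and glutathione peroxidase group were not called in any comparison. Catalase, the peroxisomal enzyme, differed by 0.11 in sedentary mice (adjusted p = 0.612), by 0.00 there without Con.Sed replicate 2, and by -0.27 in running mice (adjusted p = 0.183). Gpx4, which reduces lipid peroxides in membranes, had means of 402.2 ± 69.0 CPM in Con.VWR and 574.6 ± 103.8 CPM in OC.VWR (SD, n = 5 each), a difference of 0.51 (SE 0.17, adjusted p = 0.0551). Without Con.Sed replicate 2 that difference was called (0.51, adjusted p = 0.0203), as was the average over activity (0.31, adjusted p = 0.0346). Gpx7 and Gpx8 differed by -0.67 (SE 0.31) and -0.68 (SE 0.37) in sedentary mice at levels of 0.364 to 4.35 CPM. Without Con.Sed replicate 2 these differences were -0.49 (adjusted p = 0.306) and -0.44 (adjusted p = 0.470).

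In the thioredoxin system both called genes fell. Txnip (chr3:96557957-96561883) binds and inhibits thioredoxin and is also known as a glucose-responsive gene. It spread widely among sedentary vehicle mice, at 764.3, 391.0, 544.3, 1023 and 293.3 CPM, and stood at 448.4, 376.5, 351.0, 357.7 and 383.7 CPM in Con.VWR. On OC it was 215.9, 249.2, 244.4, 320.4 and 568.0 CPM in OC.Sed and 303.8, 411.6, 274.9, 216.3 and 187.8 CPM in OC.VWR. The diets overlapped in both activity groups. Txnip fell by 0.92 in sedentary mice (SE 0.29, adjusted p = 0.0381) and by 0.69 averaged over activity (SE 0.21, adjusted p = 0.0202), and differed by -0.46 in running mice (SE 0.29, adjusted p = 0.318). The averaged call was kept in all 28 alternatives, while the sedentary call was lost in 8 of 29, among them leaving out Con.Sed replicate 4 (adjusted p = 0.129), Con.Sed replicate 1 or any of OC.Sed replicates 1 to 4.

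Txnrd2 (chr16:18426384-18479073), the selenoenzyme that reduces thioredoxin in mitochondria, stood at 52.2, 37.9, 56.2, 46.5 and 43.7 CPM in Con.Sed and at 37.2, 37.5, 36.3, 39.4 and 41.9 CPM in OC.Sed. The groups overlapped only through Con.Sed replicate 2, at 37.9 CPM. Levels were 53.8, 43.7, 54.4, 47.9 and 46.6 CPM in Con.VWR and 46.3, 42.6, 42.4, 41.9 and 38.0 CPM in OC.VWR. Txnrd2 fell by 0.26 averaged over activity (SE 0.07, adjusted p = 0.00731) and by 0.30 in sedentary mice (SE 0.10, adjusted p = 0.0364), and differed by -0.22 in running mice (SE 0.09, adjusted p = 0.127). The averaged call was lost with library totals only (-0.14, adjusted p = 0.0719), and the sedentary call in 10 of 29 alternatives, at adjusted p of up to 0.138, including without Con.Sed replicate 1, 3 or 4 or OC.Sed replicate 1, 2, 3 or 4.

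The other 3 genes of the thioredoxin system were not called in any comparison. The cytosolic thioredoxin Txn1 differed by -0.02 in sedentary mice and by 0.33 in running mice (SE 0.12, adjusted p = 0.0702), the latter called without OC.VWR replicate 2 (0.41, adjusted p = 0.0185). Its mitochondrial counterpart Txn2 differed by -0.08 and -0.15, and the cytosolic reductase Txnrd1 by -0.05 and -0.12. The mitochondrial and the cytosolic reductase thus had averaged differences of -0.26 and -0.09, and the difference between the genes was not tested.

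**Figure D2:**
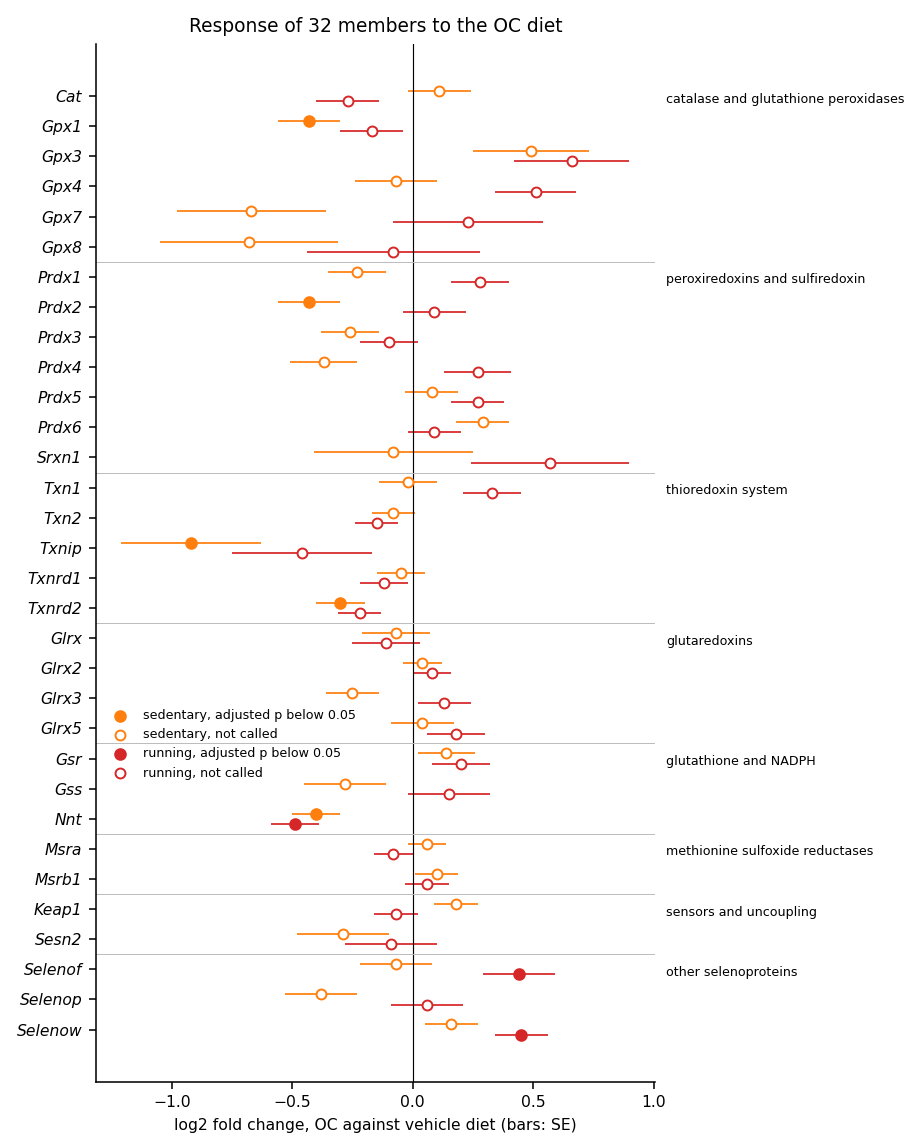
Log2 fold change with its SE for OC against vehicle in sedentary mice (orange) and in running mice (red), for the 32 genes grouped by role; filled points have an adjusted p below 0.05. Filled orange points all lie below 0, and of the 3 filled red points Selenow and Selenof lie above 0 and Nnt below.

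In sedentary mice alone 5 of the 32 genes were called, all lower, against 16.3% of all genes (9.11% higher, 7.2% lower). These were Nnt, Gpx1, Txnip, Txnrd2 and Prdx2. The median over the 32 genes was -0.07, against -0.01 over all genes, and 11 of the 32 differences were positive (34.38%, against 48.2% of all genes). The count fell to 1 without OC.Sed replicate 1 or 3, to 2 without OC.Sed replicate 2 or Con.Sed replicate 4 and to 3 without OC.Sed replicate 4, and Nnt was called in each of these. The share of all genes called in these fits is not given here. With library totals 2 genes were called, both higher (Prdx6 and Keap1), under a scaling that moved the median of all genes up by 0.10 and called 20.3% of all genes (16.8% higher, 3.53% lower).

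Prdx2 (chr8:84969587-84974834), a cytosolic peroxiredoxin, was the one peroxiredoxin called. It stood at 173.9, 238.5, 185.3, 192.2 and 242.9 CPM in Con.Sed and at 143.7, 161.8, 120.6, 169.0 and 171.0 CPM in OC.Sed. The groups did not overlap, although 173.9 and 171.0 CPM lay close together. In running mice its means were 163.6 ± 17.9 CPM on vehicle and 174.4 ± 32.4 CPM on OC (SD, n = 5 each). Prdx2 fell by 0.43 in sedentary mice (SE 0.13, adjusted p = 0.0314) and differed by 0.09 in running mice (SE 0.13, adjusted p = 0.688). The call was lost without Con.Sed replicate 2 or 5 or OC.Sed replicate 1 or 3, at adjusted p between 0.0666 and 0.0781, and without Con.Sed replicates 2 and 5 together it stood at -0.27 (adjusted p = 0.242).

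None of the other 5 peroxiredoxins, nor Srxn1, was called. In sedentary mice Prdx1 differed by -0.23, Prdx3 (mitochondrial) by -0.26, Prdx4 (endoplasmic reticulum) by -0.37, Prdx5 by 0.08 and Prdx6 by 0.29, with adjusted p from 0.0883 to 0.640. Without Con.Sed replicate 2, the lowest library of its group in Prdx6, the Prdx6 difference was 0.17 (adjusted p = 0.175). In running mice the same genes differed by 0.28, -0.10, 0.27, 0.27 and 0.09, with adjusted p from 0.105 to 0.637. Prdx1, Prdx2 and Prdx4 thus had a negative difference in sedentary mice and a positive one in running mice.

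Srxn1 (chr2:152105516-152111376) encodes sulfiredoxin, which restores overoxidised peroxiredoxins, and its result turned on 1 library. Its level was 23.4, 121.5, 34.8, 28.7 and 30.4 CPM in Con.Sed, and 42.4, 27.2, 32.7, 41.1 and 31.4 CPM in Con.VWR. On OC it was 54.2, 48.3, 37.7, 38.0 and 47.9 CPM in sedentary mice and 60.0, 30.2, 50.4, 53.0 and 66.0 CPM in running mice. Con.Sed replicate 2 was above all 19 other libraries, and the other 4 of its group were below all 5 of OC.Sed. With all libraries Srxn1 differed by -0.08 in sedentary mice (SE 0.33, adjusted p = 0.903), 0.57 in running mice (SE 0.33, adjusted p = 0.272) and 0.25 averaged over activity (SE 0.23, adjusted p = 0.486). Without Con.Sed replicate 2 the differences were 0.63 (adjusted p = 0.0271), 0.57 (adjusted p = 0.0286) and 0.60 (adjusted p = 0.00152).

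In running mice 3 of the 32 genes were called, against 13.2% of all genes (7.09% higher, 6.06% lower). The selenoproteins Selenow and Selenof rose and Nnt fell. The median over the 32 genes was 0.09, against 0.01 over all genes, and 19 of the 32 differences were positive (59.38%, against 51.04% of all genes). Without Con.Sed replicate 2 the count was 6, with Gpx3, Gpx4 and Srxn1 added, and without OC.VWR replicate 2 it was also 6, with Gpx4 and Txn1 added as higher and Sesn2 as lower. That Sesn2 call comes from removing the extreme Sesn2 library of the group. The share of all genes called without either library is not given here. With library totals 6 were higher and 1 lower, against 16.9% of all genes (13.6% higher, 3.28% lower).

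Selenow (chr7:15917208-15922402, minus strand) encodes a small selenoprotein of the thioredoxin-like fold. In running mice it stood at 134.4, 150.5, 137.0, 153.3 and 168.5 CPM on vehicle and at 224.4, 168.9, 204.7, 247.6 and 170.9 CPM on OC. These groups did not overlap, although the highest vehicle and the lowest OC library were 168.5 and 168.9 CPM. In sedentary mice it stood at 142.0, 156.6, 137.1, 164.8 and 175.4 CPM on vehicle and at 157.3, 172.4, 157.7, 183.1 and 197.8 CPM on OC, which overlapped. Selenow rose by 0.45 in running mice (SE 0.11, adjusted p = 0.00977), 1.37-fold, and by 0.31 averaged over activity (SE 0.08, adjusted p = 0.00651), and differed by 0.16 in sedentary mice (SE 0.11, adjusted p = 0.331). Both calls were kept in every alternative run for them, 29 and 28.

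Selenof (chr3:144570304-144597680) encodes a selenoprotein of the endoplasmic reticulum that binds a glycoprotein folding sensor. It stood at 190.3, 239.0, 223.4, 213.4 and 226.5 CPM in Con.VWR and at 351.1, 228.9, 344.5, 310.7 and 247.9 CPM in OC.VWR, where OC.VWR replicate 2 lay within the vehicle range. In sedentary mice its means were 261.1 ± 51.2 CPM on vehicle and 248.5 ± 41.1 CPM on OC (SD, n = 5 each). Selenof rose by 0.44 in running mice (SE 0.15, adjusted p = 0.0494) and differed by -0.07 in sedentary mice (SE 0.15, adjusted p = 0.779). The call was lost in 17 of 29 alternatives, including when Con.Sed replicate 4, any Con.VWR replicate, OC.Sed replicate 1, 2, 4 or 5, or OC.VWR replicate 1, 3 or 4 was left out, at adjusted p of up to 0.140.

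Selenop had means of 20170 ± 2778 CPM in Con.Sed, 16040 ± 2659 CPM in Con.VWR, 15500 ± 2404 CPM in OC.Sed and 16770 ± 2651 CPM in OC.VWR (SD, n = 5 each). Its differences between diets were -0.38 in sedentary mice (SE 0.15, adjusted p = 0.0790) and 0.06 in running mice (SE 0.15, adjusted p = 0.808), and it was not called. The gene at the top of the list in level was thus also highest in Con.Sed, with overlapping ranges.

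The glutaredoxins, the remaining glutathione enzymes, the methionine sulfoxide reductases and the 2 stress sensors gave no call. The 4 glutaredoxins, which reduce protein-bound glutathione or carry iron-sulfur clusters, differed by -0.25 to 0.04 in sedentary and -0.11 to 0.18 in running mice. Glutathione reductase (Gsr) differed by 0.14 and 0.20, and its average of 0.17 was called without Con.Sed replicate 2 (0.23, adjusted p = 0.0275). Glutathione synthetase (Gss) differed by -0.28 and 0.15, with Con.Sed replicate 2 at 150.7 CPM against 67.8 to 79.9 CPM in the rest of its group. Without that library the sedentary difference of Gss was -0.01 (adjusted p = 0.950). The methionine sulfoxide reductases Msra and Msrb1, which repair oxidised methionine in proteins, differed by -0.08 to 0.10. Sesn2, a stress-induced regulator, differed by -0.29 and -0.09, and the running value rests on OC.VWR replicate 2, at 36.8 CPM against 15.6 to 19.6 CPM in the rest of its group. Without that library Sesn2 was called lower in running mice (-0.38, adjusted p = 0.0425). The library stood out by its own Sesn2 level, so this call is not a test of the Sesn2 difference. Keap1, the repressor of the antioxidant transcription factor NRF2, differed by 0.18 and -0.07.

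**Figure D3:**
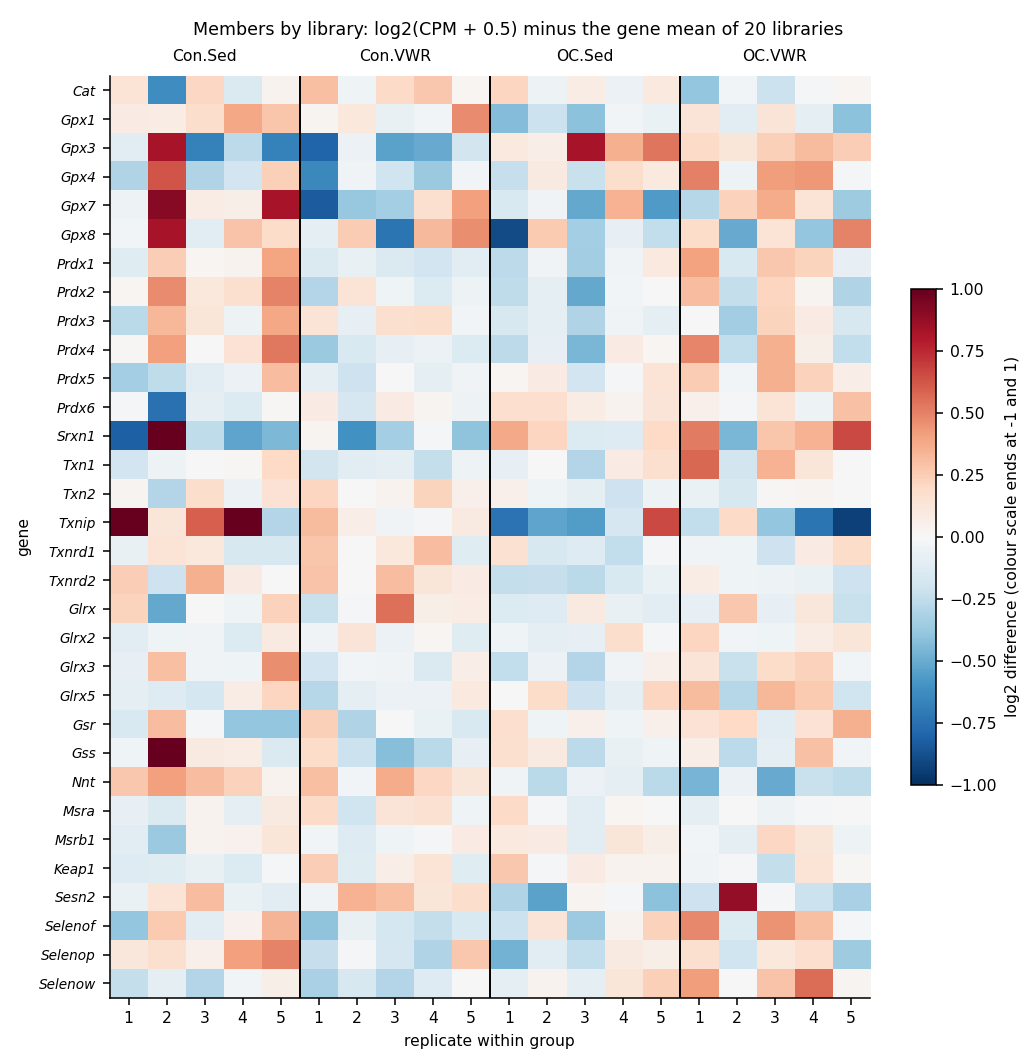
Each row is 1 of the 32 genes and each column 1 of the 20 libraries; colour gives log2(CPM + 0.5) minus the mean of the gene over the libraries, on a scale that ends at -1 and 1. Con.Sed replicate 2 is high in Srxn1 and Gss and low in Prdx6, and several peroxiredoxins and selenoproteins are higher in OC.VWR replicates 1, 3 and 4 than in replicates 2 and 5.

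Running changed none of the 32 genes at the threshold. By edgeR, 0 of 32 were called for running against sedentary on the vehicle diet, on the OC diet or averaged over diet, against 0% of the 10207 genes in each. At an unadjusted p below 0.05 there were 7, 1 and 0 of the 32 genes, against 1414, 694 and 496 of the 10207 genes. By limma voom 0 of the 32 were called in each, and by DESeq2 also 0, while among all genes DESeq2 called 42, 1 and 2. The medians over the 32 genes were -0.06 on the vehicle diet, 0.11 on the OC diet and 0.02 averaged over diet, against -0.01, 0.00 and 0.00 over all genes. Positive differences made up 37.5%, 75.0% and 59.38% of the 32 genes, against 47.33%, 49.72% and 48.58% of all genes. The smallest adjusted p on the vehicle diet was 0.275, for Prdx4 at -0.39 (SE 0.14).

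The interaction, which asks whether the OC difference was itself different in running mice, also gave 0 of 32 by edgeR, against 0% of all genes. At an unadjusted p below 0.05 there were 8 of the 32 genes, against 1802 of the 10207 genes tested. Limma voom called 0 of the 32, and DESeq2 called 2 of the 32 and 119 of all genes. Those 2 were Prdx1 (0.52, DESeq2 adjusted p = 0.0406) and Prdx4 (0.64, DESeq2 adjusted p = 0.0420), for which edgeR gave 0.51 (SE 0.17, adjusted p = 0.201) and 0.64 (SE 0.20, adjusted p = 0.201). The median interaction was 0.19 over the 32 genes and 0.01 over all genes, and 23 of the 32 were positive (71.88%, against 51.44% of all genes). That genes such as Selenof were called in running but not in sedentary mice is therefore not a difference between the activity groups that edgeR's test detected.

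Gene length moved with the interaction and with the diet difference within each activity group. Over quintiles of all tested genes by exonic length, shortest first, the median interaction was 0.20, 0.05, 0.00, -0.05 and -0.11. The median diet difference over the same quintiles was -0.10, -0.03, 0.00, 0.02 and 0.03 in sedentary mice and 0.11, 0.04, 0.01, -0.02 and -0.07 in running mice. Averaged over activity it was nearly level, at 0.01, 0.01, 0.01, 0.00 and -0.02. The 32 genes had a median exonic length of 3046 bases, against 4310 for all genes tested, and 11 of them lay in the shortest quintile and 8 in the second, with median interactions of 0.29 and 0.45. The shift was also visible library by library. The shortest quintile of all genes stood above the longest by 0.33, 0.24 and 0.15 (log2, relative to the mean of 20 libraries) in OC.VWR replicates 1, 3 and 4, while the difference was -0.17 and -0.08 in replicates 2 and 5. The median of the 19 short genes of the list was 0.18, 0.23 and 0.12 in the first 3 of these libraries and -0.09 and -0.05 in the other 2. In OC.Sed replicate 3 the same measures were -0.26 and -0.25, and in Con.Sed replicates 2 and 5 they were 0.13 and 0.25, and 0.23 and 0.20. Of the genes called for the diet, Selenow (736 bases), Gpx1 (1441), Gpx3 (1813), Prdx2 (3050) and Txnip (3123) are among these short genes, while Txnrd2 (4401), Selenof (5819) and Nnt (7037) are not. With all libraries, Gpx3 was called only averaged over activity and Prdx2 only in sedentary mice. The part of gene length in the differences of the short genes was not tested.

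**Figure D4:**
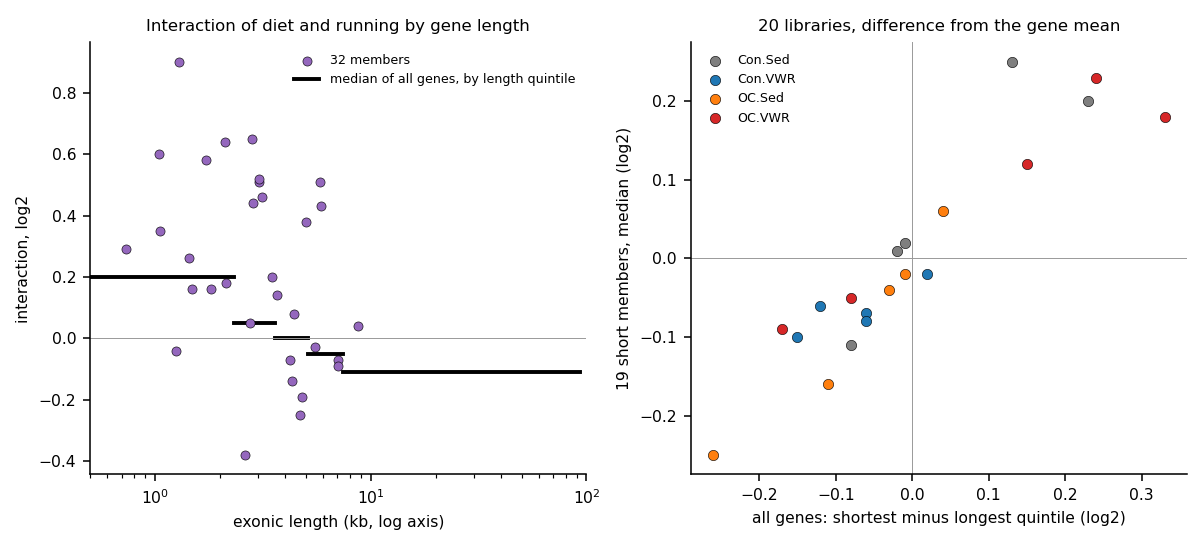
Left, the interaction of diet and running (log2) against exonic length on a log axis for the 32 genes, with black bars for the median of all tested genes in each length quintile, from 0.20 for the shortest to -0.11 for the longest. Right, for each of the 20 libraries, the median of the 19 shorter genes of the list against the shift of the shortest relative to the longest quintile of all genes; OC.VWR replicates 1, 3 and 4 lie at the upper right and OC.Sed replicate 3 at the lower left.

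The promoters of these genes were searched for the core of the antioxidant response element, to which NRF2 binds, spelled TGACNNNGC, on both strands of the RefSeq windows (GRCm38.p6) from 250 bases before to 50 bases after the start. A window was found for 28 of the 32 genes. The letters occurred in 4 of the 28 genes (14.29%), Prdx1, Sesn2, Srxn1 and Txnrd1, against 16.31% of the tested genes with a window. None of the 4 was called for the diet with all libraries in the fit.

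The genes around the list were described through 7 lists taken from textbook knowledge, and their counts stand against 22.9% of all genes called averaged over activity (11.9% higher, 11% lower). The lists were chosen with earlier results of these data known, so these counts are a description and not a test. In each list, genes without an intact line or below the filter on low counts were not tested. Of 35 listed genes of glutathione synthesis, turnover and transfer, 14 had an intact line and 11 were tested. The synthesis genes Gclc and Gclm and the Gsta, Gstm and Gstp transferases were not among the 11. Of the 11, 2 were higher and 2 lower on OC averaged over activity (median 0.12). The microsomal glutathione transferase Mgst3 fell by 0.89 (SE 0.11, adjusted p = 5.34e-06) and the transferase Gstk1 by 0.23 (SE 0.06, adjusted p = 0.00454), the latter a call lost with library totals (-0.11, adjusted p = 0.0950). Ggct, of glutathione breakdown, rose by 0.56 (SE 0.14, adjusted p = 0.00526) and Mgst1 by 0.31 (SE 0.09, adjusted p = 0.0211). Of 37 listed NRF2 regulators and targets 16 were tested, and 2 were higher and 1 lower (median 0.06). The gene of NRF2 itself (Nfe2l2) and its targets Nqo1, Gclc, Gclm and Slc7a11 were not among the 16, so these are not covered. The carbonyl reductase Cbr1 rose by 0.57 and the aldehyde oxidase Aox1 by 0.53. G6pdx, the first enzyme of the pentose phosphate pathway, fell by 0.55 (SE 0.18, adjusted p = 0.0339). The G6pdx call was lost in 12 of 28 alternatives, at adjusted p of up to 0.0846. It was lost at up to 0.0758 without Con.Sed replicate 3 or 5, Con.VWR replicate 2, 3 or 4, OC.Sed replicate 2 or 4, or OC.VWR replicate 2 or 3.

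Of 12 tested genes in the list of other selenoproteins 3 were higher and 1 lower (median 0.00). The 3 that were higher are selenoproteins, while Gpx6, the one that was lower, is known to carry cysteine in place of selenocysteine in the mouse and has no selenocysteine codon annotated in GENCODE vM21. Gpx2, the gastrointestinal glutathione peroxidase, rose by 2.46 (SE 0.56, adjusted p = 0.00286) at a very low level, with means of 0.134 ± 0.154 and 0.180 ± 0.281 CPM in the vehicle groups and 0.729 ± 0.363 and 1.09 ± 0.713 CPM in the OC groups (SD, n = 5 each). Selenos, of protein quality control in the endoplasmic reticulum, rose by 0.31 (SE 0.09, adjusted p = 0.0135), and Selenoi, of phospholipid synthesis, rose by 0.22 (SE 0.07, adjusted p = 0.0175). Gpx6 fell by 0.94 (SE 0.32, adjusted p = 0.0345), also at a low level. Its means were 2.087 ± 1.625 and 1.695 ± 0.810 CPM in the vehicle groups and 1.025 ± 0.162 and 0.942 ± 0.134 CPM in the OC groups. The Gpx6 call was lost in 12 of 28 alternatives, at adjusted p of up to 0.197. It was lost at up to 0.0929 without Con.Sed replicate 1 or 4, Con.VWR replicate 1, 2 or 5, OC.Sed replicate 2 or 5, or OC.VWR replicate 1 or 2. The Selenoi call was lost without OC.Sed replicate 1 or OC.VWR replicate 5 (adjusted p of up to 0.0572). Of 11 genes in the list for selenocysteine synthesis and incorporation 1 was higher and 1 lower (median -0.04), and both are selenium-binding proteins that do not carry out either step. Selenbp2 rose from means of 14.3 ± 5.40 and 14.0 ± 7.92 CPM on vehicle to 89.4 ± 24.8 and 71.2 ± 60.1 CPM on OC (2.50, SE 0.35, adjusted p = 2.5e-05), and Selenbp1 fell by 0.47 (SE 0.10, adjusted p = 0.00196).

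Enzymes that make superoxide or hydrogen peroxide moved in both directions. Of 21 tested, 8 were higher and 5 lower averaged over activity (median 0.07), 7 higher and 1 lower in sedentary mice (against 16.3% of all genes called), and 5 higher and 4 lower in running mice (against 13.2%). The endoplasmic reticulum oxidase Ero1lb rose by 0.86 (SE 0.10, adjusted p = 1.12e-06), the aldehyde oxidase Aox3 rose by 0.69 (SE 0.13, adjusted p = 0.000441) and Aox1 by 0.53 (SE 0.09, adjusted p = 0.000242). The peroxisomal hydroxyacid oxidase Hao2 fell from means of 61.7 ± 25.4 and 59.4 ± 10.5 CPM on vehicle to 11.1 ± 4.58 and 13.1 ± 8.61 CPM on OC (-2.33, SE 0.26, adjusted p = 1.33e-06). The monoamine oxidase Maob fell by 0.44 (SE 0.11, adjusted p = 0.00491) and the pipecolic acid oxidase Pipox by 0.35 (SE 0.09, adjusted p = 0.00673).

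Of 17 listed genes of NADPH supply only 7 were tested, and 1 was higher and 2 lower (median 0.11). Nadk, which makes NADP+, rose by 0.20 (adjusted p = 0.0497), and Mthfd2l fell by 0.43 (adjusted p = 0.0269) beside G6pdx. The Nadk call was lost in 19 of 28 alternatives, 16 of which left out 1 library (any but Con.Sed replicate 5, Con.VWR replicate 4, OC.Sed replicate 4 or OC.VWR replicate 2, with adjusted p of up to 0.108). The Mthfd2l call was lost without Con.VWR replicate 3 (adjusted p = 0.0589) and with library totals (adjusted p = 0.0903). Of 25 other genes of oxidant defence 4 were higher and 2 lower (median -0.03). Haptoglobin (Hp), which binds free hemoglobin, rose by 0.53 (SE 0.09, adjusted p = 0.000278), the disulfide isomerase Txndc5 rose by 0.42 (SE 0.09, adjusted p = 0.00131) and Hebp2 by 1.35 (SE 0.29, adjusted p = 0.00173). Nudt1, which clears oxidised nucleotides, fell by 0.37 (SE 0.11, adjusted p = 0.0190) and Trp53inp1 by 0.41 (SE 0.14, adjusted p = 0.0368). The Trp53inp1 call was lost in 13 of 28 alternatives, at adjusted p of up to 0.1225. It was lost at up to 0.0737 without Con.Sed replicate 2 or 4, Con.VWR replicate 2, OC.Sed replicate 1, 3 or 4, or OC.VWR replicate 1, 3, 4 or 5. The Nudt1 call was lost with library totals and without Con.Sed replicates 2 and 5 together (adjusted p of up to 0.0878).

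**Figure D5:**
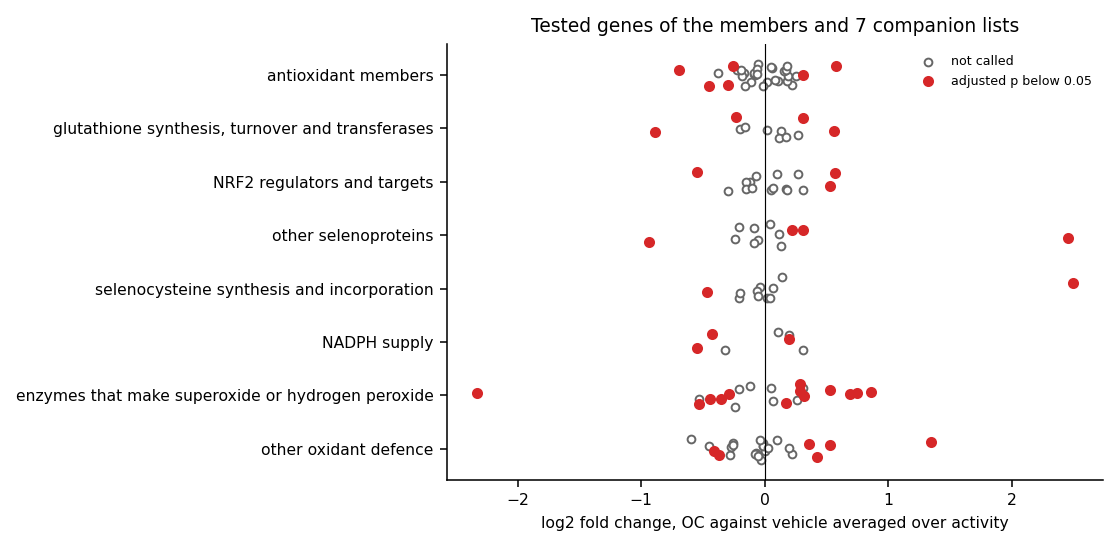
Log2 fold change for OC against vehicle averaged over activity, for the 32 antioxidant genes and the tested genes of 7 companion lists; each point is 1 gene, red points have an adjusted p below 0.05, and the vertical spread within a list carries no meaning. Hao2 at -2.33, Gpx2 at 2.46 and Selenbp2 at 2.50 lie farthest from 0, while the 32 genes lie between -0.69 and 0.58.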

How the data were processed

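Stranded paired-end libraries were made from the liver RNA of 20 mice, per the labels' protocols. STAR was used on mm10, per the submitters' processing notes. How reads were counted, with which annotation and strand setting, is not given in the sources used here. The values the authors deposited were treated as estimated counts per gene with no scaling across libraries. That unit is inferred from 2 genes that hold fractional values and were left out. All values used were whole, and rounding changed none. Of 35504 genes 11511 (32.42%) had displaced or doubtful lines and were left out. Positions and exonic lengths are from GENCODE vM21, in which 35467 of the gene IDs were found.

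The tests were run in edgeR 4.0.16 under R 4.3.3 (filterByExpr, TMM, quasi-likelihood fit with 1 mean per group, 7 contrasts, Benjamini-Hochberg over 10207 genes, threshold 0.05). Common biological coefficient of variation was 0.178. Alternatives used limma 3.58.1 (voom), DESeq2 1.42.0, other scalings and filters, displaced lines put back (19 libraries) and left-out libraries. In simulated counts over 10207 genes, the contrast of OC in sedentary mice found 50.7% of genes set to 1.5-fold, 74.6% at 2-fold and 98.5% at 4-fold. The same shares for the contrast averaged over activity were 62.7%, 83.6% and 97%. The simulation changed 67, 67 and 66 genes at these folds, a smaller part of all genes than was called in the data. No fold below 1.5 was simulated, so these shares do not cover smaller differences.

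The members and lists were chosen with earlier results of these data known, so no test was made over a list. The genes named are every member past the threshold in any contrast, with values by library, and up to 3 called genes in each direction of each companion list. Srxn1 and other uncalled members are given as values. Replicates are numbered in accession order, which pairs nothing.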

Additional observations from a re-analysis of the deposited data

Results flagged for a closer look

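In each group of 5 libraries a gene was marked when its highest or lowest library stood farther from the nearest other than Dixon's 95% limit for 5 values (0.71 of the range). Over the 32 genes and 4 groups this marked 7 of 128 groups, and chance marks about 1 in 20.

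Con.Sed replicate 2 accounted for 4 of the 7. It was highest of its group in Srxn1 (121.5 CPM, the others 23.4 to 34.8), in Gss (150.7 CPM, the others 67.8 to 79.9) and in Gpx3 (15.9 CPM, the others 5.29 to 8.12), and lowest in Prdx6 (414.7 CPM, the others 632.0 to 702.7). The same library had the highest sums of Kupffer cell, stellate cell, cholangiocyte, adipocyte, and lymphocyte and neutrophil markers of all 20 (990.8, 1013, 150.0, 88.95 and 23.56 CPM, against at most 883.2, 860.9, 132.6, 67.89 and 20.13 CPM). Its sum of liver endothelium markers, 584.2 CPM, lay within the range of the other 19 (432.9 to 720.3 CPM). Its erythroid sum was the lowest, at 4.347 CPM against at least 6.257 CPM. The part of these cell types in the marked values was not tested.

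Gpx1 in Con.VWR replicate 5 was 4121 CPM, the others 2832 to 3199. Glrx in OC.Sed replicate 3 was 37.4 CPM, the others 31.9 to 33.2. Sesn2 in OC.VWR replicate 2 was 36.8 CPM, the others 15.6 to 19.6, and without it the diet difference of Sesn2 in running mice was -0.38 in place of -0.09.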

How the results depend on the processing

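No paired analysis was possible because the titles give no replicate numbers that groups share. Nnt averaged over activity and in running mice, Selenow in both its calls, and Gpx3 and Txnip averaged over activity kept direction and call under every alternative run. Leaving out 1 library at a time gave 1 to 6 called members for OC in sedentary mice, 2 to 6 in running mice and 6 to 9 averaged over activity, and 0 for each running contrast and the interaction. With library totals in place of TMM, the median of all genes rose by 0.10, 0.12 and 0.11 and the counts were 2 (all higher), 7 (6 higher) and 13 (11 higher). The shares of all genes called in these were 20.3%, 16.9% and 30.9%. Fitting only the 2 groups compared gave 3 in sedentary and 5 in running mice. DESeq2 called 6 in running mice, against 1629 of all genes, and 2 for the interaction, against 119 of all genes. Leaving out Con.Sed replicates 2 and 5 together gave 7 in running mice. For the fits with left-out libraries or only 2 groups, the share of all genes called is not given here.

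No called difference of a member changed sign. In sedentary mice Srxn1 (-0.08) turned to 0.21 with limma voom, 0.63 without Con.Sed replicate 2 and 0.64 without replicates 2 and 5. Gpx4 (-0.07) turned to 0.03 with library totals, 0.12 without Con.Sed replicate 2 and 0.25 without both. Selenof (-0.07) turned to 0.04 with library totals, to 0.12 without both, and to 0.00 without Con.Sed replicate 5. With library totals Cat (-0.08) turned to 0.04 and Txnrd1 (-0.09) to 0.03 averaged over activity, and Sesn2 (-0.09) to 0.02 in running mice, where it ran from -0.38 to -0.01 over the left-out libraries. Over the left-out libraries the sedentary values ran from -0.26 to 0.63 for Srxn1, -0.15 to 0.12 for Gpx4 and -0.17 to 0.00 for Selenof. The cause of these shifts was not tested. With 5 mice a group, recovery on simulated counts was lower for 1.5-fold than for larger changes.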
